A study of Homo sapiens with 18 samples.

Results

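Among the sites called with an antibody against ETO in control cells, a minority had no peak of the antibody against the Flag tag in either condition. The members were chosen by these calls themselves. They were found by merging the 4 single-antibody peak lists (anti-ETO and anti-Flag, control and knockdown) wherever peaks overlapped by at least 1 bp, and by keeping merged regions with a control anti-ETO peak and no peak of either Flag list. They numbered 1076 of the 13224 merged regions with a control anti-ETO peak, and of 35622 merged regions in all. A total of 497 of the 1076 had no knockdown anti-ETO peak either and are called control-only, and 579 had one and are called both-condition. The other 12148 control anti-ETO regions, with at least 1 Flag peak, are called Flag-supported and serve as the comparison.

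The 18 CUT&RUN libraries came from Kasumi-1, a human acute myeloid leukaemia line that carries the t(8;21) translocation, in a version with Flag-tagged AML1-ETO. CUT&RUN tethers a nuclease to an antibody bound on chromatin and sequences the released fragments. The 6 groups of 3 libraries were control or miR-130a knockdown cells, each with anti-ETO, anti-Flag or mouse IgG, and all cells had been transduced and sorted for GFP 3 days later. The labels do not say what the control vector carried or whether the tagged cells are 1 clone, nor how much of the AML1-ETO in the cells carries the tag.

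AML1-ETO joins the DNA-binding Runt domain of RUNX1 (AML1) to most of RUNX1T1 (ETO), a corepressor-binding protein. The fusion binds DNA at RUNX motifs, often beside ETS factors and E proteins, and recruits NCoR and histone deacetylase complexes as well as activators. It is known for altering the expression of myeloid differentiation genes. An antibody against ETO can in principle see every protein with that epitope, and an antibody against Flag sees the tagged protein.

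Each antibody and condition was represented by 1 list of peak positions, with no height, score or value per library. A region is therefore called or not called, the depth behind each call is unknown, and no spread between libraries could be computed. The lists held 14264 (control anti-ETO), 23162 (control anti-Flag), 22594 (knockdown anti-ETO) and 25961 (knockdown anti-Flag) peaks. Intervals and tests below count regions of these lists, cover counting error only, and say nothing of how far another set of libraries would differ. As the labels do not tie libraries to separate cultures, the 3 libraries of a group may be technical repeats.

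Of 196 genes in lists on AML1-ETO biology and blood cells, 152 had a start in the promoter table, and 4 of these starts (2.63%) lay inside an ETO-only region. Among all 15842 protein-coding genes in that table the share was 1.35%. The 4 were CDKN1B, an inhibitor of cyclin-dependent kinases, CDK4, a kinase that drives G1 progression, PMAIP1, the BH3-only death protein NOXA, and IL3RA, the alpha chain of the interleukin-3 receptor, whose call is uncertain because the gene is pseudoautosomal. The bases before these 4 starts are shown because the starts lie inside ETO-only regions. Each run holds the 250 bases before the RefSeq start of the gene (GRCh38.p14), 5′ to 3′ on the strand of the gene, and capitals mark the letters GGGCGG or CCGCCC, the GC box bound by SP and KLF factors.
CDKN1B, both-condition, chr12:12717118-12717367, plus strand: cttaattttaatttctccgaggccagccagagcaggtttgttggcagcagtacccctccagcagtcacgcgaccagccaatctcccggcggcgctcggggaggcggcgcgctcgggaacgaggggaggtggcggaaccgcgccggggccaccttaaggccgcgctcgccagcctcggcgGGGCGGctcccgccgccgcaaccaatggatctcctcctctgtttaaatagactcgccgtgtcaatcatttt
CDK4, both-condition, chr12:57752311-57752560, minus strand: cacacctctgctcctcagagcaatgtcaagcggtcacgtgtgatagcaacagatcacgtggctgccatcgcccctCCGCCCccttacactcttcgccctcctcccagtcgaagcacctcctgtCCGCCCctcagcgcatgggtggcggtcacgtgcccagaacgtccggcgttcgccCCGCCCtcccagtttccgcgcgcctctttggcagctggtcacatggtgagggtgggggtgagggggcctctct
PMAIP1, both-condition, chr18:59899746-59899995, plus strand: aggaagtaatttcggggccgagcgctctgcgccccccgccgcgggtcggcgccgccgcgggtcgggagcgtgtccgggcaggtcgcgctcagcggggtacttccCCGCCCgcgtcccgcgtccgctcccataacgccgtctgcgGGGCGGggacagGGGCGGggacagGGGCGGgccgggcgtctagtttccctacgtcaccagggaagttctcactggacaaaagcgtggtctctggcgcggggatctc
IL3RA, control-only, chrX:1336535-1336784, plus strand: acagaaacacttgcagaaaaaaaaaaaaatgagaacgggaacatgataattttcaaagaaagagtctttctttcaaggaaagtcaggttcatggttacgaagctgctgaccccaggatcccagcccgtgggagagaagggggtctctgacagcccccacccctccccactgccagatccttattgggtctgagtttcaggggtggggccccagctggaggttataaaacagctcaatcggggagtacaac

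All 250 bases lay inside the region at CDKN1B and PMAIP1, 192 did at IL3RA and 31 at CDK4, where the region extended into the gene instead. GC boxes were found 4 times before PMAIP1, 3 times before CDK4 and once before CDKN1B, and not before IL3RA. Those before CDK4 began 175, 127 and 73 bases before the start and lay outside the ETO-only region. GC content was 72.8% before PMAIP1, 65.6% before CDK4, 64.4% before CDKN1B and 49.6% before IL3RA. None of the 4 windows held TGTGGT or TGCGGT, the core letters of the RUNX motif searched here, on either strand.

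The RUNX letters were found before other starts inside ETO-only regions. Of the promoter windows of protein-coding genes whose 250 bases lay wholly inside a region, 20 of 95 in both-condition and 2 of 15 in control-only regions held them. Such matches are common, as 19.6% of all promoter windows of 300 bases held them. No share over all windows of 250 bases was computed. The next 4 runs were picked for holding these letters, and come from the 2 widest such regions of each subclass. The RUNX letters are in capitals.
HELLS, both-condition, chr10:94545538-94545787, plus strand: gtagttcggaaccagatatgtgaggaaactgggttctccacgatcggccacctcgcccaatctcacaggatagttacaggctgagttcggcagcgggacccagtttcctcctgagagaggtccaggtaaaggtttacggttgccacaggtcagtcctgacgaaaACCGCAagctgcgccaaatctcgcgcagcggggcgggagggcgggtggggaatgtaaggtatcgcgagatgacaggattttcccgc
SMARCE1, both-condition, chr17:40647819-40648068, minus strand: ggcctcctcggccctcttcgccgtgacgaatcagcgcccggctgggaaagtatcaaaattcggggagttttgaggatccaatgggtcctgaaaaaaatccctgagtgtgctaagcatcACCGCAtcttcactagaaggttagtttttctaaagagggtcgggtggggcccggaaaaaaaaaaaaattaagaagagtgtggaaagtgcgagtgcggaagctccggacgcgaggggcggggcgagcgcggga
COPB1, control-only, chr11:14499812-14500061, minus strand: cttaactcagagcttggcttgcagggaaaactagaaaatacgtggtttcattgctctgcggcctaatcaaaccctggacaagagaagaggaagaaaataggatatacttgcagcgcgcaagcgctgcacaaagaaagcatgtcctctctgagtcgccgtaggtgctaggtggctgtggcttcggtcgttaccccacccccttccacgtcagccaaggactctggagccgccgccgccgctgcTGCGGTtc
ACAT1, control-only, chr11:108121317-108121566, plus strand: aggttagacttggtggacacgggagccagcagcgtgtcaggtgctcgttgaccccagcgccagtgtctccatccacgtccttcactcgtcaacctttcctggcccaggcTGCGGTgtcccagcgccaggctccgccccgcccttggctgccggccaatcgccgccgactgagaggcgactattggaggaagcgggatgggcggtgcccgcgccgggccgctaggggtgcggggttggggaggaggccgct

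HELLS encodes a chromatin remodelling helicase, SMARCE1 a subunit of the SWI/SNF remodelling complex, COPB1 a coat protein of Golgi vesicles and ACAT1 a mitochondrial thiolase. Each window held the RUNX letters once. Their first base lay 86 bases before the start of HELLS, 132 before SMARCE1, 8 before COPB1 and 141 before ACAT1.

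Over whole promoter windows of 300 bases (250 before to 50 after the start), 43 of the 201 windows whose start lay in a both-condition region held the RUNX letters, a share of 21.4% (95% Wilson interval 16.3 to 27.6). The same held for 14 of the 72 windows in control-only regions (19.4%, 11.95 to 30.03). Among all 34943 promoter windows of RefSeq the share was 19.6%, and among the 5772 windows in Flag-supported regions it was 24.0% (22.9 to 25.1). Windows in knockdown-ETO-only regions, those called by knockdown anti-ETO alone, held the RUNX letters in 65 of 402 cases (16.2%). A match is a description of these letters and not a binding site, and neighbouring windows can share bases.

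GC boxes were found in 74.1% (67.7 to 79.7) of windows in both-condition and 69.4% (58.0 to 78.9) in control-only regions. The shares were 76.5% in Flag-supported regions and 44.9% of all windows. Median GC content was 67.3% in both-condition, 65.7% in control-only, 68.0% in Flag-supported and 58.7% in all windows. ETS letters (CCGGAAG or AGAGGAA) were found in 33.3% (23.5 to 44.8) of control-only, 21.9% (16.7 to 28.1) of both-condition and 24.98% of Flag-supported windows, against 19.2% of all windows. GATA letters (AGATAA) were at 2.78% in control-only and 1.99% in both-condition windows, against 3.55% in Flag-supported and 10.4% in all windows. CEBP letters (TTGCNNAA) were at 4.17% and 6.47%, against 5.77% and 10.5%. In windows of 200 bases the both-condition share of CEBP letters was 5.97%, nearer to that of all windows (6.51%) than to the Flag-supported share (3.08%). The other families searched were E-box letters (CAGCTG or CAGGTG), found in 34.7% of control-only, 37.8% of both-condition, 32.1% of Flag-supported and 34.5% of all windows, and AP-1 letters (TGANTCA), at 6.94%, 3.98%, 3.57% and 7.72% in the same order. NFY letters (CCAAT) were at 34.7%, 34.3%, 34.1% and 34.6%, and those of CTCF at 2.78%, 2.99%, 3.05% and 2.41%. Motif shares were not tested, and by point estimate the families did not share a pattern. GC boxes and GATA letters in ETO-only windows lay nearer to the Flag-supported share, with GATA letters in only 2 control-only and 4 both-condition windows. The RUNX shares of both subclasses lay nearer to that of all windows. The ETS share of control-only windows and the E-box shares of both subclasses were above both references. The intervals of the RUNX and E-box shares held both references, so their order is not settled. The interval of the control-only ETS share held the Flag-supported share, so the order of these is not settled either.

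How far ETO-only regions lie from the nearest Flag peak follows in part from the rule, and is given as a description. The gap ran from 17 bp upwards in control-only regions, with a median of 16176 bp, and from 51 bp upwards in both-condition regions, with a median of 13208 bp. Of the control-only regions, 144 (29.0%) had a Flag peak within 1 kb and 144 (29.0%) had none within 100 kb. Of the both-condition regions, 184 (31.8%) had a Flag peak within 1 kb and 126 (21.8%) had none within 100 kb. Some regions therefore flanked a Flag peak, and others stood alone in large stretches without one. Few lay close to the limit of the rule: 3 control-only and 4 both-condition regions had a Flag peak within 100 bp. On the other side, 4 Flag-supported regions had an overlap of 1 to 10 bp between a control anti-ETO and a Flag peak, and 28 were joined to a Flag peak only through another peak.

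**Figure D1:**
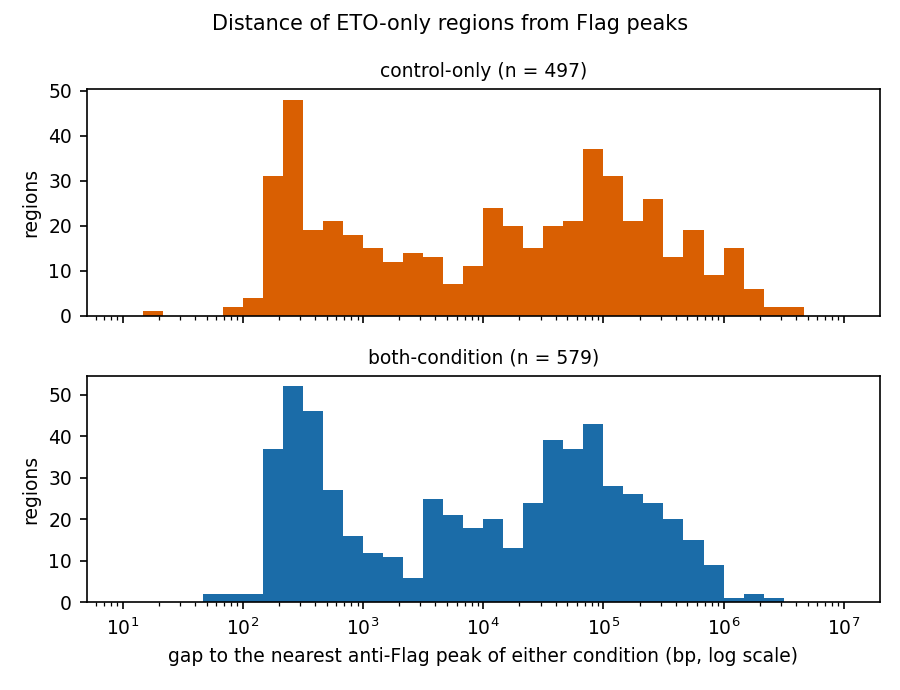
Gap in bp (log scale) from each control-only (upper panel) and both-condition (lower panel) region to the nearest anti-Flag peak of either condition; bars count regions. Both panels show a group of regions under 1 kb from a Flag peak and a wide group beyond 10 kb, with medians of 16176 bp and 13208 bp.

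Control-only regions often had a knockdown anti-ETO peak close by. For 114 of the 497 (22.9%) the nearest knockdown anti-ETO peak lay within 500 bp, and for 148 (29.8%) within 1 kb. The other 349 (70.2%) had none within 1 kb, and 291 (58.6%) none within 10 kb. Control-only thus means no overlapping call, and for part of the regions it does not mean that the locus lacked anti-ETO peaks in knockdown.

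Regions without Flag were narrow. The median width was 225 bp for control-only regions (quartiles 187 and 354 bp, highest 819 bp) and 420 bp for both-condition regions (270 and 547 bp, highest 1341 bp). It was 850 bp for Flag-supported regions (548 and 1372 bp) and 303 bp for knockdown-ETO-only regions. Merging adds the width of other lists, so the control anti-ETO peak itself was also compared: its median was 225 bp in control-only, 278 bp in both-condition and 502 bp in Flag-supported regions. Of the control-only regions, 193 (38.8%) were narrower than 200 bp, near the shortest control anti-ETO peak of 176 bp, against 53 (9.15%) of the both-condition and 150 (1.23%) of the Flag-supported regions. A narrow peak has less chance of overlapping another list, so these widths are tied to the rule and were not tested.

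**Figure D2:**
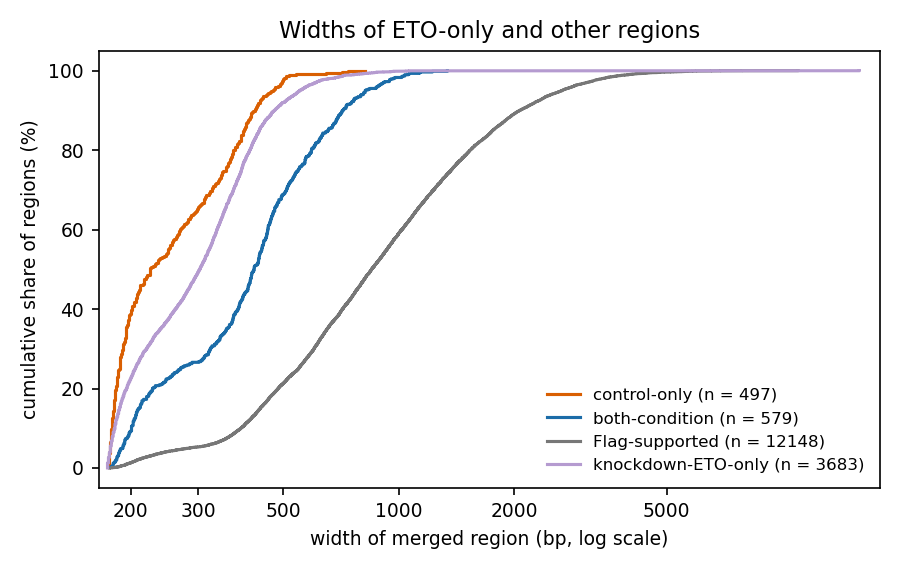
Cumulative share of regions (%) by width of the merged region in bp (log scale) for the control-only, both-condition, Flag-supported and knockdown-ETO-only regions. The control-only line lies farthest to the left (median 225 bp) and the Flag-supported line farthest to the right (median 850 bp).

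Inside the both-condition regions the anti-ETO peaks of both conditions largely coincided. A knockdown peak covered a median of 97.8% of the control peak (quartiles 85.7% and 100%) and at least 50% of it in 513 of the 579 regions. The knockdown peak was the wider in 360 of the 579 (62.2%), with a control median of 278 bp, a knockdown median of 362 bp and a median ratio of 1.07 (quartiles 0.95 and 1.63). In Flag-supported regions with both anti-ETO calls the knockdown peak was the wider in 75.1% of 11413, with a median ratio of 1.21. Most both-condition regions (573) joined exactly 1 control and 1 knockdown peak, and 6 joined 3 or 4 peaks.

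Over all control anti-ETO regions, 90.7% had a knockdown anti-ETO peak. Among those without Flag the number was 579 of 1076, or 53.8% (50.8 to 56.8). The rule fixes this split together with the absence of a knockdown Flag peak, so it is a description. Among regions with a Flag peak in control only, 2310 of 2936 had a knockdown anti-ETO peak (78.7%), and among regions with a Flag peak in knockdown 9103 of 9212 did (98.8%). The share differed with the width of the control peak. Among regions without Flag it was 46.5% (41.4 to 51.6) for control peaks of up to 200 bp, 67.7% (60.8 to 73.9) for 401 to 600 bp and 86.7% (70.3 to 94.7) for the 30 peaks over 600 bp. Among regions with Flag in control only it was 67.4% (63.3 to 71.3), 81.0% (78.3 to 83.5) and 95.6% (93.2 to 97.2) in the same bins. A longer knockdown anti-ETO list moves with these shares, and its part in them was not tested.

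**Figure D3:**
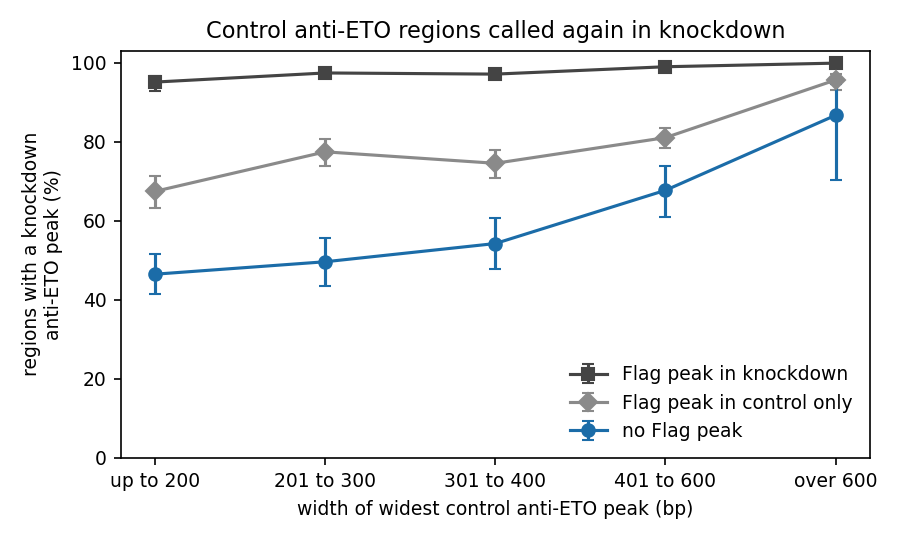
Share of control anti-ETO regions with a knockdown anti-ETO peak (%, with 95% Wilson intervals) by width of the widest control anti-ETO peak in bp, for regions with a Flag peak in knockdown, with a Flag peak in control only and with no Flag peak. In the regions without Flag the share is 46.5% for the narrowest and 86.7% for the widest peaks.

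The comparison of positions asked whether ETO-only regions lie where Flag-supported regions lie. By the centre of the region, both-condition regions were concentrated at gene starts, more so than either control-only or Flag-supported regions. By the count of regions that hold a start, given further below, both-condition regions were below Flag-supported regions. The start used is the RefSeq start of each gene, and a region counted when its centre lay within 1 kb; chromosome 8 was left out of start counts where starts were not analysed here. Of the both-condition regions 376 of 570 lay at a start (66.0%, 62.0 to 69.7), of the control-only regions 218 of 474 (46.0%, 41.6 to 50.5), and of the Flag-supported regions 5994 of 11720 (51.1%, 50.2 to 52.0). Over all merged regions the share was 29.9%.

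Both-condition regions exceeded Flag-supported regions by 14.8 percentage points (95% interval 10.7 to 18.7, two-sided Fisher's exact test over regions, adjusted p = 1.07e-11), and by 9.87 points in the wider 50% of each class (Fisher's exact test, adjusted p = 0.00118). The difference of control-only from both-condition regions was -19.97 points (-25.8 to -13.96, Fisher's exact test, adjusted p = 1.37e-10), and -6.99 points with all 4 lists shortened to the same length (Fisher's exact test, adjusted p = 2.09e-04). Their difference from Flag-supported regions was -5.15 points (-9.68 to -0.56, Fisher's exact test, adjusted p = 0.031). Each p was adjusted by the Benjamini-Hochberg method for the 3 pairs of classes. The last difference depended on the settings: in the wider 50% of each class it was -11.5 points, with the lists shortened by peak width it was 7.27 points in the other direction (Fisher's exact test, adjusted p = 3.42e-09), and with a start distance of 500 bp it was -0.79 points (Fisher's exact test, adjusted p = 0.739). Among regions of up to 400 bp, which brings the widths closer, 69.4% of both-condition, 47.2% of control-only and 58.2% of Flag-supported regions lay at a start.

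Leaving out ETO-only regions with a Flag peak within 1 kb gave the same order, with 66.5% of 388 both-condition and 42.1% of 335 control-only regions at a start. The centre lay downstream of the nearest start in 53.2% of both-condition and 55.0% of control-only regions near a start, and in 57.0% of Flag-supported ones. The median offset was 35.5 bp downstream in both-condition, 47 bp in control-only and 61 bp in Flag-supported regions. Of the nearest starts, 83.2% belonged to protein-coding genes for both-condition and 78.9% for control-only regions, and the rest to long non-coding RNA genes.

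Counted over all chromosomes by gene boundaries, the starts and ends of genes pooled, 417 of the 579 both-condition regions lay within 1 kb (72.0%, 68.2 to 75.5), against 38.5% of all merged regions. The numbers were 278 of 497 control-only regions (55.9%, 51.5 to 60.2) and 7182 of 12148 Flag-supported regions (59.1%). Both-condition regions lay 12.9 points above Flag-supported regions (9.01 to 16.5, Fisher's exact test, adjusted p = 1.04e-09) and control-only regions differed from both-condition regions by -16.1 points (-21.7 to -10.3, Fisher's exact test, adjusted p = 7.52e-08). The former was 6.46 points among regions of up to 400 bp, and the latter was -4.76 points with the lists shortened (Fisher's exact test, adjusted p = 0.0408 and 0.00801). With distance taken from the nearest edge of the region, the former was 9.52 points (Fisher's exact test, adjusted p = 2.75e-06). Control-only regions differed from Flag-supported regions by -3.19 points (-7.66 to 1.21), which did not pass the test (Fisher's exact test, adjusted p = 0.163). Outside genes lay 82 control-only regions (16.5%), 39 both-condition regions (6.74%) and 11.7% of Flag-supported regions. For knockdown-ETO-only regions the shares were 46.5% near a boundary and 14.6% outside genes.

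**Figure D4:**
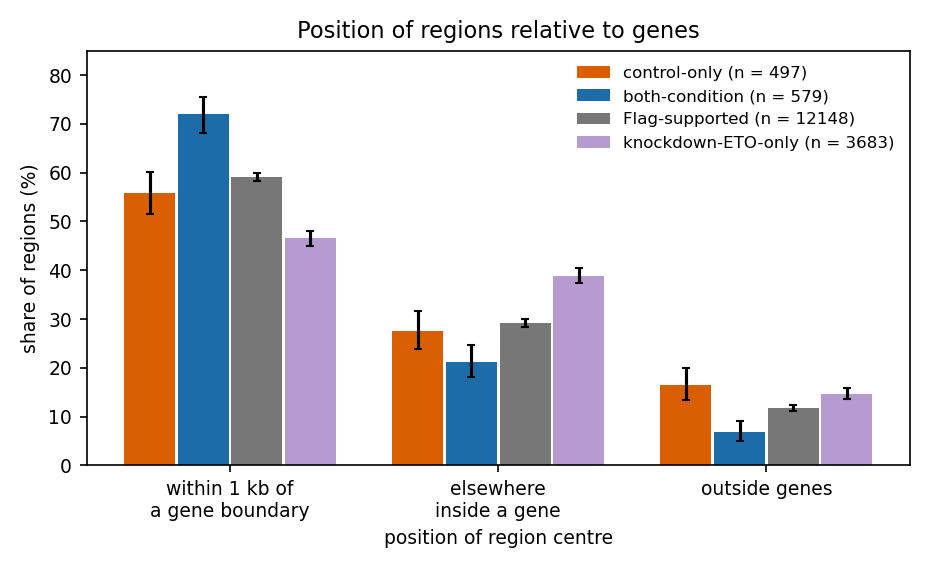
Share of regions (%, bars from 0 with 95% Wilson intervals) whose centre lies within 1 kb of a gene boundary, elsewhere inside a gene or outside genes, for the control-only, both-condition, Flag-supported and knockdown-ETO-only regions. The both-condition bar is the highest near boundaries (72.0%) and the lowest outside genes (6.74%).

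A gene start lay inside 169 of 570 both-condition regions (29.6%) and 62 of 474 control-only regions (13.1%), against 4067 of 11720 Flag-supported regions (34.7%) and 15.2% of all merged regions outside chromosome 8. By this count both-condition regions were below Flag-supported regions. A wider region holds a start more easily, so these counts were not tested. The starts covered belonged to 160 protein-coding genes in both-condition and 54 in control-only regions. The examples that follow were chosen after their values were seen, for what the genes are known to do. Both-condition regions covered the starts of ATR, a kinase of the DNA damage checkpoint (chr3:142578497-142578806, 144422 bp from a Flag peak), and KDM5B, a histone H3 lysine 4 demethylase (chr1:202808238-202808652, 2272 bp from a Flag peak). A both-condition region 11450 bp from a Flag peak covered the starts of both PGAP3 and ERBB2, a receptor tyrosine kinase (chr17:39687853-39688372). Another covered the start of TGFB3, a transforming growth factor beta ligand (chr14:75982341-75983051). Its control peak was 597 bp and its knockdown peak 711 bp wide, with the nearest Flag peak 168328 bp away.

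Control-only regions covered the starts of CDK7, the kinase of the CDK-activating complex and of TFIIH (chr5:69234558-69235055), and of the DNA repair genes FAN1, a nuclease of crosslink repair (chr15:30903584-30904080), and XPA, a nucleotide excision repair factor (chr9:97697151-97697566). The region at CDK7 was 498 bp wide, with the nearest knockdown anti-ETO peak 16106 bp away, and that at FAN1 was 497 bp wide, with the nearest 311567 bp away. At MCM3, a subunit of the replicative helicase, the control-only region was 187 bp wide and a knockdown anti-ETO peak lay 321 bp away. At CUL1, the scaffold of SCF ubiquitin ligases, it was 196 bp wide with a knockdown anti-ETO peak 160 bp away. The regions at CDK7 and FAN1 stood apart from knockdown anti-ETO peaks, and the narrower ones at MCM3 and CUL1 lay beside one.

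Of the 5 widest control-only regions, named by the rule on widths, 4 covered a gene start: UPRT on chromosome X (chrX:75273630-75274448, 819 bp), CFAP299 (chr4:80335465-80336202, 738 bp), the non-coding LOC124902110 (chr9:3526155-3526866, 712 bp) and CASP8, the initiator caspase of death receptor signalling (chr2:201233024-201233668, 645 bp). None of these 4 had a Flag peak or a knockdown anti-ETO peak within 10 kb, the smallest gap being 24059 bp at CASP8.

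The widest both-condition region covered the start of C12orf57 and overlapped the small nuclear RNA gene RNU7-1 (chr12:6943645-6944985, 1341 bp), 1592 bp outside PTPN6, which encodes the phosphatase SHP-1. Its widest control peak was 632 bp and its knockdown peak 1341 bp. The region at DSCR9 (chr21:37220449-37221673) had a control peak of 178 bp and a knockdown peak of 1225 bp. The next regions by width lay in MAD1L1, a spindle checkpoint gene (chr7:2019084-2020222), 2660 bp before the start of GNPDA1 (chr5:142015121-142016252), and over the start of GCN1 (chr12:120194339-120195405). Of these 5 both-condition regions, 2 covered a start, those at C12orf57 and GCN1. The 5 regions had their nearest Flag peak between 3567 and 44437 bp away.

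Chromosome X was the chromosome with the highest share of control anti-ETO regions lacking Flag. Of its 333 control anti-ETO regions 78 had no Flag peak (23.4%, 19.2 to 28.3), against 8.14% (7.68 to 8.61) over all chromosomes. The lowest share was on chromosome 19, with 54 of 1326 (4.07%, 3.13 to 5.28), and chromosomes 17 (4.54%) and 16 (4.76%) were close to it. After X came chromosome 21 with 26 of 197 (13.2%, 9.17 to 18.6), of which 18 were control-only.

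Put as shares of each subclass, 44 both-condition regions (7.60%, 5.71 to 10.05) and 34 control-only regions (6.84%, 4.94 to 9.41) lay on X, against 255 Flag-supported regions (2.10%) and 1.67% of all merged regions. Knockdown-ETO-only regions, which also lack a Flag peak, lay in between, with 127 of 3683 on X (3.45%, 2.91 to 4.09). Both-condition regions exceeded Flag-supported regions by 5.50 points (3.59 to 7.96, Fisher's exact test, adjusted p = 1.24e-11) and control-only regions did so by 4.74 points (2.82 to 7.32, Fisher's exact test, adjusted p = 1.53e-08). With the lists shortened the former was 2.86 points (Fisher's exact test, adjusted p = 6.56e-08). Among regions of up to 400 bp the shares on X were 6.61% for both-condition, 6.51% for control-only and 3.06% for Flag-supported regions, and both subclasses still exceeded Flag-supported regions (Fisher's exact test, adjusted p = 0.0144 and 0.00703). The subclasses differed from each other by -0.76 points (-3.86 to 2.43), which did not pass the test (Fisher's exact test, adjusted p = 0.724). This comparison was added after the chromosome counts were seen, and the start comparison after the boundary counts. Chromosome X was picked for its highest share in these same counts, and the p-values are not adjusted for that choice. The peak lists themselves differed on X: it held 2.48% of control anti-ETO, 2.11% of knockdown anti-ETO, 1.64% of control anti-Flag and 1.13% of knockdown anti-Flag peaks, and the part of these differences in the result was not tested.

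Of the 78 regions on X, 50 (64.1%) lay at a gene start, and the median gap to a Flag peak was 12976 bp. On the other chromosomes outside chromosome 8, 544 of 966 (56.3%) lay at a start and the median gap was 14415 bp. The starts of 10 protein-coding genes on X lay in both-condition and of 5 in control-only regions. Among them, chosen after their values were seen, were IL2RG, the common gamma chain of interleukin receptors, in a both-condition region (chrX:71111382-71112112, control peak 405 bp, knockdown peak 731 bp). OGT, the O-GlcNAc transferase, was in a control-only region (chrX:71533088-71533263, 176 bp) with a Flag peak 238 bp and a knockdown anti-ETO peak 213 bp away. NDUFB11 and RBM10 shared a both-condition region (chrX:47144484-47145462) with a control peak of 927 bp and a knockdown peak of 240 bp.

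On the 4 gene-dense chromosomes 19, 17, 11 and 16, ETO-only regions were fewer. They held 75 control-only regions (15.1%, 12.2 to 18.5) and 111 both-condition regions (19.2%, 16.2 to 22.6), against 30.9% of Flag-supported regions and 39% of all merged regions. Of the knockdown-ETO-only regions 27.3% lay there. Control-only regions differed from Flag-supported regions by -15.8 points (-18.8 to -12.3, Fisher's exact test, adjusted p = 5.29e-15), or -8.57 with the lists shortened, and both-condition regions by -11.7 points (-14.9 to -8.24, Fisher's exact test, adjusted p = 7.09e-10). Control-only and both-condition regions differed by -4.08 points (-8.54 to 0.46), which did not pass the test (Fisher's exact test, adjusted p = 0.0893). These chromosomes held 30.4% of control and 33.9% of knockdown anti-ETO peaks, and 35.6% of control and 44.3% of knockdown anti-Flag peaks. The classes are set by the Flag calls, so these differences are tied to where the Flag lists have peaks. The part of the lists in the result was not tested.

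**Figure D5:**
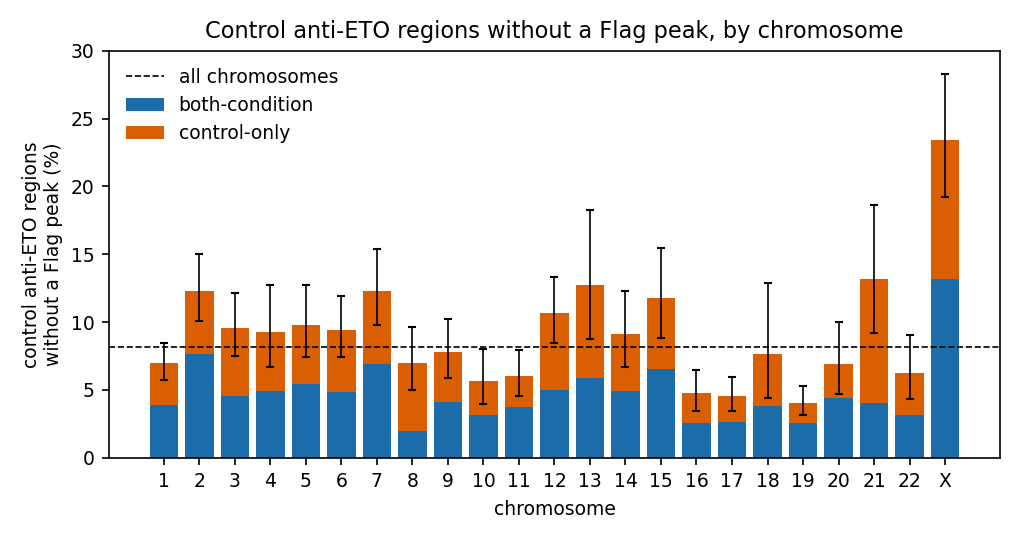
Share of the control anti-ETO regions of each chromosome that have no Flag peak (%, bars from 0, with 95% Wilson intervals for the total), split into both-condition and control-only regions; the dashed line marks all chromosomes (8.14%). Chromosome X stands highest at 23.4% and chromosome 19 lowest at 4.07%.

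The listed genes were then searched for ETO-only regions inside the gene or up to 10 kb beyond it. A region was found for 20 of the 196 (10.2%), 10 with a control-only and 13 with a both-condition region. Over 19970 protein-coding genes the shares were 6.4% for either subclass, 2.83% for control-only and 3.81% for both-condition. The median length was 18496 bp for the listed and 24190 bp for all protein-coding genes. With 50 kb the number was 35 genes (17.9%, against 11.9% of all protein-coding genes), and in the gene body alone 13 (6.63%, against 3.83%). No protein-coding gene had 3 or more regions of one subclass within 10 kb, and 80 of the 1076 regions (7.43%) had another ETO-only region within 10 kb.

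None of the 7 RUNX, CBFB and ETO family genes, the 12 partner genes of the AML1-ETO complex (such as TCF12, LYL1, LMO2 and ERG) or the 9 corepressor genes (such as NCOR1, TBL1XR1 and HDAC3) had an ETO-only region. Among 22 myeloid transcription factor genes 3 did. Over all protein-coding genes 6.4% had such a region. The lists are small, and neither these counts nor those by list below were tested against that share. CEBPB, a factor of granulocyte and macrophage differentiation, had a both-condition region in its body, 939 bp from a Flag peak (chr20:50191992-50192346). GFI1B, a transcriptional repressor that acts in erythroid and megakaryocytic cells, had one 786 bp before its start (chr9:132944644-132944845), 47140 bp from a Flag peak. MYC had a control-only region with a Flag peak 487 bp and a knockdown anti-ETO peak 387 bp away.

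Cell cycle genes with an ETO-only region were CCND1, CDK4 and CDKN1B, 3 of 13 listed. At CDKN1B a both-condition region covered the start (chr12:12717029-12717459, control peak 243 bp, knockdown peak 431 bp), and a control-only region of 326 bp lay 858 bp before it (chr12:12716347-12716672). The nearest Flag peaks were 7740 and 8527 bp away. At CDK4 a both-condition region covered the start (chr12:57751944-57752341, control peak 363 bp, knockdown peak 311 bp), and a control-only region of 176 bp lay 477 bp before it (chr12:57752699-57752874). Here the nearest Flag peaks were 6731 and 7486 bp away. Both control-only regions had a knockdown anti-ETO peak close by, 356 bp away at CDKN1B and 357 bp away at CDK4. CCND1, the cyclin D1 gene, had a both-condition region in its body, 232 bp from a Flag peak.

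Among 10 genes of the BCL2 family, which act in cell death and survival, PMAIP1 and BCL2L1 had an ETO-only region. The both-condition region over the start of PMAIP1 (chr18:59899522-59900145) had a control peak of 277 bp and a knockdown peak of 453 bp, and the nearest Flag peak was 759258 bp away. BCL2L1, the gene of the survival protein BCL-XL, had a control-only region of 187 bp in its body (chr20:31723318-31723504), with a Flag peak 231 bp and a knockdown anti-ETO peak 228 bp away.

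Among 11 growth factor receptor genes, IL3RA and CSF3R had ETO-only regions. The control-only region over the start of IL3RA (chrX:1336593-1336989, 397 bp) lay 32230 bp from a Flag peak and 208 bp from a knockdown anti-ETO peak. IL3RA lies in the pseudoautosomal part of X, where reads can also match Y. CSF3R, the granulocyte colony-stimulating factor receptor gene, had a both-condition region 1198 bp beyond its end (chr1:36464502-36464845), 6285 bp from a Flag peak.

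Of the other groups, MPO was the 1 neutrophil granule gene of 12 with a region, a both-condition one 2417 bp outside the gene (chr17:58266815-58267438), with a control peak of 448 bp and a knockdown peak of 206 bp. SELPLG, the P-selectin ligand gene and the 1 of 14 stem cell and adhesion genes, had a both-condition region in its body (chr12:108633576-108633944) and a control-only region 4515 bp outside it (chr12:108617202-108617380). ID1, an inhibitor of basic helix-loop-helix factors, had a control-only region 880 bp before its start (chr20:31604235-31604582), SMAD3 had one in its body (chr15:67099088-67099356), and FOSB, an AP-1 subunit gene, had a both-condition region in its body (chr19:45468991-45469215). These were 3 of 20 Notch, ID, SMAD and AP-1 genes. EZH2, the H3 lysine 27 methylase gene, had a both-condition region 416 bp before its start (chr7:148884440-148884974) with a control peak of 196 bp and a knockdown peak of 535 bp, and RAD21, a cohesin gene, a control-only one in its body, together 2 of 15 co-mutated genes. UNG, the uracil glycosylase gene, had a control-only region in its body (1 of 11 base excision repair genes), and the region outside PTPN6 made it the 1 of 14 signalling genes. A region up to 10 kb away may belong to a neighbour of the named gene.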

How the data were processed

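Peak positions of CUT&RUN libraries were analysed, 1 list per antibody and condition. The submitters' processing notes name hg38 and sacCer3 as builds, and fastp 0.19.5, Bowtie2 2.3.5, MACS2 2.2.5 and HOMER 4.8 as tools. Thresholds, the use of IgG and the handling of replicates are not given in the sources used here. Any of these can change the length of a list, and a longer Flag list leaves fewer ETO-only regions. Per the labels, each assay took 200000 cells, libraries were size-selected to 150 to 400 bp, and the planned depth was about 40 M paired reads of 75 bp.

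The deposited positions were merged with pandas 2.3.3, numpy 2.4.6 and scipy 1.17.1 under Python 3.11.15. The 2 deposited lists of peaks called by both antibodies overlapped 0 of the 1076 regions, which follows from the rule, as members have no Flag peak. Gene spans, gene starts and promoter sequences were those of RefSeq for GRCh38.p14, which shares its chromosome coordinates with hg38, and all 196 listed genes matched. No genome sequence was used here, so motifs were searched on both strands of promoter windows only. SP/KLF and other motifs can overlap. Shares carry 95% Wilson intervals, differences have Newcombe intervals, and two-sided Fisher's exact tests were adjusted by Benjamini-Hochberg over 3 class pairs. The functions were tested on 1200 simulated loci, of which 1200 were recovered with their planted lists. These loci lay far apart and their peaks overlapped by design, so near-edge and chained cases were not covered.

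The regions, gene lists and most tests were chosen with earlier results of these data known. Named genes are the listed ones with a region within 10 kb, and named regions the 5 widest of each subclass and those over the start of a listed gene; a few of these are not reported here. The tests of gene starts and chromosome X were added later. Alternatives were other overlap rules, list lengths, widths and distances.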

Additional observations from a re-analysis of the deposited data

How the results depend on the processing

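Of 90 alternative values of the 12 share comparisons, 77 kept their direction and their side of the threshold (0.05, adjusted). The size of the class depends on the overlap rule and on list length. With gaps of up to 500 bp joined, there were 348 control-only and 432 both-condition regions in place of 497 and 579. With all 4 lists shortened to the shortest by peak width, the rule gave 2133 control-only and 1036 both-condition regions. In the same setting 3 differences changed direction: control-only minus Flag-supported regions was 7.76 points for gene boundaries (Fisher's exact test, adjusted p = 4.67e-11) and 7.27 points for gene starts (Fisher's exact test, adjusted p = 3.42e-09), and control-only minus both-condition regions was 0.38 points for chromosome X. Control-only minus both-condition regions fell in size there, to -4.76 points for boundaries and -6.99 points for starts. For the boundary comparison of control-only with Flag-supported regions, a boundary of 500 bp also changed the direction, to 2.81 points. Besides the shortened lists, the same comparison passed the threshold, in the negative direction, with gaps of up to 500 bp joined (-7.39 points), the wider 50% of each class (-11.6), protein-coding genes only (-4.63), regions of up to 400 bp (-9.79), distance from the nearest edge (-6.28) and members with no Flag peak within 1 kb (-5.58). The gene start comparison of these classes no longer passed with a distance of 500 bp (-0.79 points). On gene-dense chromosomes, control-only and both-condition regions differed past the threshold with the wider 50% of each class (-7.25 points) and with members that have no Flag peak within 1 kb (-5.63). The cause was not tested for any of these.

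Over all settings run, both-condition minus Flag-supported regions ranged from 9.87 to 18.9 points for gene starts and from 2.86 to 6.52 points for chromosome X, and control-only minus Flag-supported regions from 3.25 to 4.99 points for chromosome X. With 50 kb 35 listed genes had a region (17.9%, against 11.9% of all protein-coding genes), and in the gene body alone 13 (6.63%, against 3.83%). In windows of 200 bases the RUNX letters were in 12.9% of both-condition, 15.3% of control-only, 16.9% of Flag-supported and 13.5% of all windows, so that the both-condition share, above that of all windows at 300 bases, was below it. No paired analysis was possible because the lists hold no values per library, and for the same reason no replicate could be left out.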
